A study of Mus musculus with 32 samples.

Results

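Inhibitory receptors of microglia, macrophages and other myeloid cells, together with the ligands that engage them, were followed after photothrombosis of the mouse cerebrum and spinal cord. The genes were taken by symbol from the annotated probes of the array: the receptors Lilrb4a, Pilra, Pilrb1, Cd33, Siglec1, Siglece, Sirpa and Cd200r1, and the ligands Cd47 and Cd200. All 10 were measured, each by 1 probe, among 19505 genes on the array. RNA came from male wild-type C57BL/6J mice aged 6 to 12 weeks, with no transgene or deletion in any group. Photothrombosis closes vessels by illumination of a circulating photosensitive dye. In each tissue 4 control arrays were set beside 4 arrays each from day 1, day 3 and day 7 after the lesion, which makes 8 groups of 4 and 32 arrays. The labels do not state whether controls were operated on, nor that each array came from a separate animal, so each p-value reflects only the variation among these samples, which may be technical.

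Several of these receptors carry a tyrosine motif in the cytoplasmic tail, called ITIM, that is phosphorylated on engagement and recruits the phosphatases SHP-1 (encoded by Ptpn6), SHP-2 (Ptpn11) and SHIP1 (Inpp5d), which dampen signals from activating receptors. Sirpa on phagocytes binds Cd47, a widely expressed "do not eat me" signal, and Cd200r1, which signals through Dok adaptors, binds Cd200 on neurons and endothelium. Cd33 and Siglece are sialic acid-binding lectins, and Siglece is an inhibitory one. Siglec1, also called sialoadhesin or CD169, is a macrophage lectin of the same family that lacks the motif, and Pilrb1 is the activating partner of the inhibitory receptor Pilra and signals through the adaptor encoded by Tyrobp. Lilrb4a encodes gp49B, an inhibitory receptor of the leukocyte immunoglobulin-like family known to bind fibronectin.

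The genes include a neighbouring pair with a nearly identical stretch before the start of transcription and a pair of Siglec genes on another chromosome. In GRCm38.p6, Pilra (Entrez identifier 231805) lies on chromosome 5 from 137821952 to 137836278 and Pilrb1 (170741) from 137852141 to 137858425, with 15.9 kb between them. Cd33 (12489) lies on chromosome 7 from 43527399 to 43537424 and Siglece (83382) from 43648882 to 43672044, with 111 kb between them. RefSeq promoter sequences of this build were matched for 6 of the 10 genes, and the 250 bases before the start are shown for these 2 pairs because the members of each pair are neighbours whose changes are set side by side below. All 4 genes are on the minus strand. The Pilra window is chr5:137836279-137836528, and the Pilrb1 window is chr5:137858050-137858299. Except for Pilra, the start used lies inside the annotated span of the gene, so the window may overlap other transcripts of the same gene. Capitals mark the 196 bases that align without gaps between Pilra and Pilrb1, identical at 192 positions (98.0%). The block ends directly at the Pilra start and 55 bases before the Pilrb1 start.
Pilra: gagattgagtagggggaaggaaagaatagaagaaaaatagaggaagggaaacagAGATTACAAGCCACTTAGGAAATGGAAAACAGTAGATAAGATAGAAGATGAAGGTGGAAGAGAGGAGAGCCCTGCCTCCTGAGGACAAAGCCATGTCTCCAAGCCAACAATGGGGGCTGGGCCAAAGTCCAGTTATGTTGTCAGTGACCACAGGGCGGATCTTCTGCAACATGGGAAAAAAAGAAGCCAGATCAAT
Pilrb1: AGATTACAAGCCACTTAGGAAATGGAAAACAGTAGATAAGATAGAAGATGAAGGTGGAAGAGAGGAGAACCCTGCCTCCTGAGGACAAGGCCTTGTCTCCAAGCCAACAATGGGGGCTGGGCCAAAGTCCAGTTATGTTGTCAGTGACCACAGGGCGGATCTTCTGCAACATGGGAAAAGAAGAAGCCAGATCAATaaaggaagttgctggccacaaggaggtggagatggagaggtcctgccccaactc

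The windows of the Siglec pair are chr7:43533172-43533421 for Cd33 and chr7:43660162-43660411 for Siglece, both GRCm38.p6. Capitals mark GAGGAA, the core letters of sites bound by the myeloid factor PU.1 and other ETS factors, or its reverse complement TTCCTC.
Cd33: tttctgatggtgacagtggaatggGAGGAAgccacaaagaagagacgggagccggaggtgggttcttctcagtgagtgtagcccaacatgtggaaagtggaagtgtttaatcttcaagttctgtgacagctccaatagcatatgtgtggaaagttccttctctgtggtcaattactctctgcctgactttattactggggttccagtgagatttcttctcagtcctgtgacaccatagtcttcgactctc
Siglece: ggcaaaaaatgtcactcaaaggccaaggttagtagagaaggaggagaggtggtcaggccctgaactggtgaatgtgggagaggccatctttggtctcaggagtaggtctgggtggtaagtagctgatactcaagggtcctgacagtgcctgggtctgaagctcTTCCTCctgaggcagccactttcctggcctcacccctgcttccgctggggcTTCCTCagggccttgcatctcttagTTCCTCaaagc

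No other motif was searched, and both strands were read. The motif occurred once in the Cd33 window, 226 bases before the start, and at 3 places in the Siglece window, 87, 36 and 11 bases before the start and all on the minus strand of the gene. Pilra held it once, 211 bases before the start and outside the block shared with Pilrb1. The windows of Pilrb1, Cd200 and Cd47 did not hold these letters. Of 32851 promoters, 23.3% held the motif in the same 250 bases, so a match is a description of the sequence and not of binding.

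The deposited values are log2 values centred on the median of each probe. They carry no level, and no gene can be ranked above another. The 16 arrays of controls and day 1 were centred together, and the arrays of day 3 and of day 7 each apart with the 8 controls as partners, so the offset of each probe was rebuilt and its uncertainty was made a bound that a difference had to exceed. Spinal day 3 replicate 1 stood apart from its group, with an array weight of 0.225 on a scale where 1 is average. Sample titles run in a separate number range for each group, and those of spinal day 7 alone begin with another letter. Should such a range stand for a batch, its effect and that of the group cannot be told apart. As a check of the tissue labels, spinal controls exceeded cerebral controls in Hoxc8 by 5.79 ± 0.24 and in the glycine transporter Slc6a5 by 6.25 ± 0.21 (log2 ± SE), and differed in the cortical gene Tbr1 by -4.60 ± 0.15. They also held skeletal muscle genes: Myh4, a fast muscle myosin, was 5.47 ± 0.88 higher than in cerebral controls.

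The comparison of each day with the control of the same tissue asked when the receptors and ligands changed. In the cerebrum 1 of the 10 genes was higher at day 1, against 8.91% of all genes higher and 8.22% lower at an adjusted p under 0.05. At day 3 it was again 1 of 10, against 4.41% of all genes higher and 4.01% lower, and at day 7 it was 2 of 10, against 5.28% higher and 2.88% lower. In the spinal cord 5 of 10 were higher at day 1, against 15.8% higher and 16.1% lower. At day 3 it was 6 of 10, against 11.8% higher and 12.2% lower, and at day 7 it was 7 of 10, against 16.3% higher and 18.4% lower. None of the 10 was called lower than control in any of these 6 comparisons by limma's test. The median change of the 10 genes at day 7 was 0.39 in the cerebrum and 1.28 in the cord, where the median of all genes was -0.05 and -0.10. Because the tissue was bulk, fewer or more cells of a type and less or more RNA per cell cannot be told apart in any of these values. All adjusted p-values are limma's with Benjamini-Hochberg adjustment over the 19505 genes, and changes are given as log2 differences ± SE with n = 4 arrays per group.

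**Figure D1:**
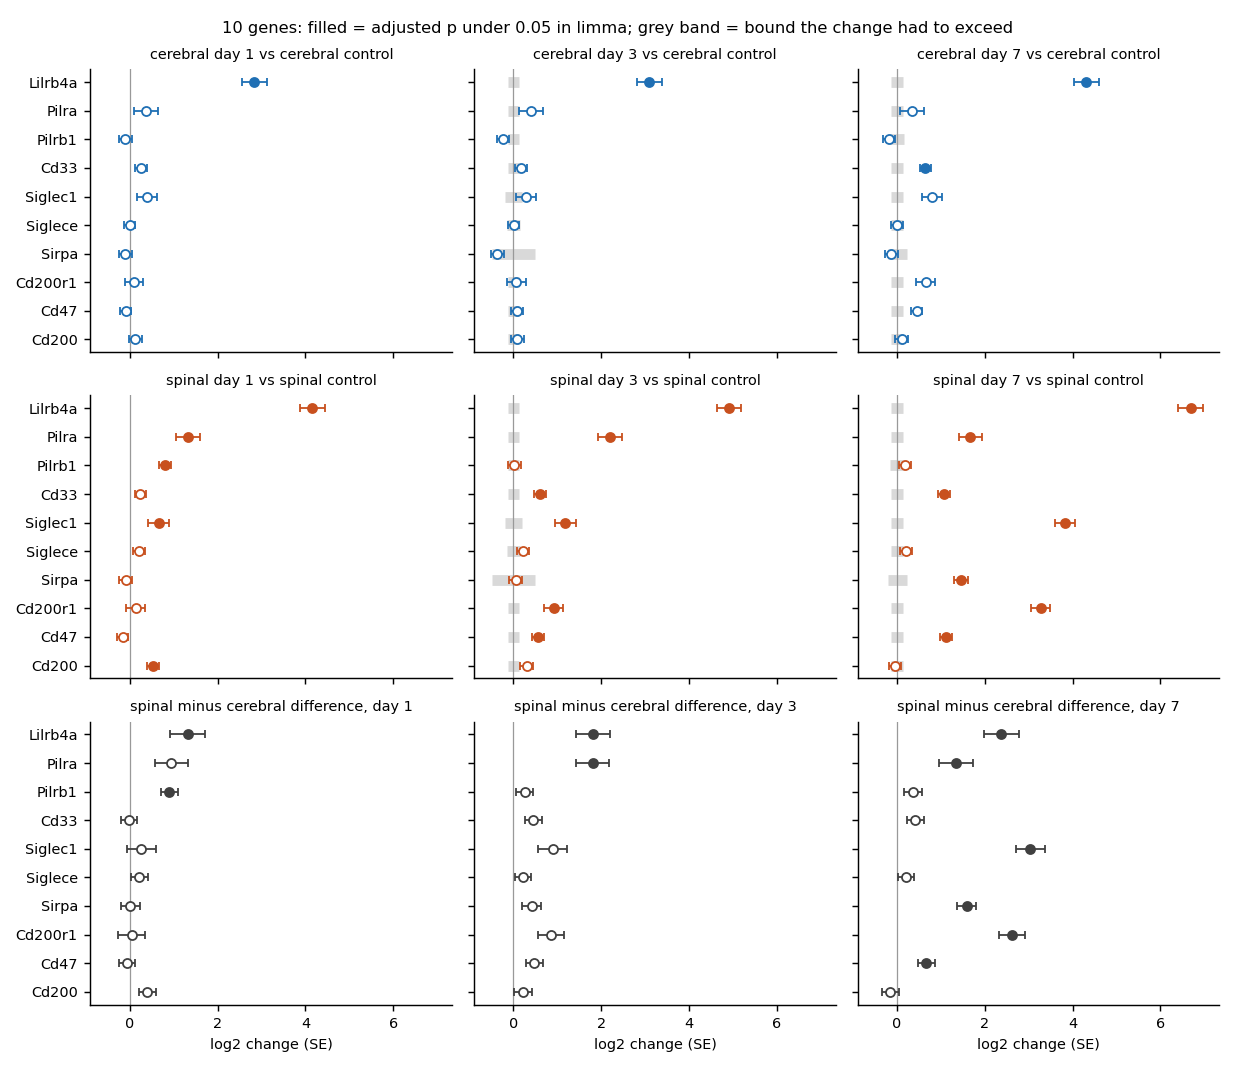
Log2 change against the control of the same tissue (x axis) for each of the 10 genes (y axis) at day 1, day 3 and day 7, in the cerebrum and the spinal cord, with bars of 1 SE from the limma fit. The bottom row of panels shows the spinal minus cerebral difference at the same days instead of a change against control. Grey bands mark the bound a change had to exceed, where there was one. Filled points passed an adjusted p under 0.05. Lilrb4a is filled in all 6 comparisons with control, Siglece in none, and in the cord at day 7 Lilrb4a (6.69), Siglec1 (3.82) and Cd200r1 (3.27) lie farthest to the right.

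Lilrb4a (Entrez identifier 14728, chromosome 10 from 51490898 to 51496613) was the only one of the 10 genes that rose in all 6 comparisons with control. On the rebuilt log2 scale the cerebral control arrays stood at -2.23, -1.91, -1.84 and -1.78. Day 1 arrays of the cerebrum were 1.23, 0.57, 0.77 and 1.00, day 3 arrays 1.06, 1.18, 1.02 and 1.37, and day 7 arrays 2.70, 2.33, 2.66 and 1.79. Every injured cerebral array lay above every cerebral control, and every day 7 array above every array of day 1 and day 3. The rise over control was 2.83 ± 0.28 at day 1 (adjusted p = 2.7e-08), 3.10 ± 0.28 at day 3 (5.5e-09) and 4.31 ± 0.28 at day 7 (2.0e-12), the last of these 19.8-fold.

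Spinal controls stood at -1.51, -0.57, -1.25 and -1.56 for Lilrb4a. Day 1 arrays of the cord were 3.08, 3.26, 3.39 and 2.01, day 3 arrays 3.72, 2.68, 3.94 and 4.41, and day 7 arrays 5.69, 5.71, 5.29 and 5.18. The day 7 arrays were the highest of all 32, and no injured cord array reached down to a control. The changes were 4.16 ± 0.28 at day 1 (adjusted p = 4.7e-12), 4.91 ± 0.28 at day 3 (1.4e-13) and 6.69 ± 0.28 at day 7 (5.8e-18), or 17.8-fold, 30.1-fold and 103-fold. In the order of group means, spinal day 7 led, followed by spinal day 3, spinal day 1 and cerebral day 7, and both controls came last. Spinal day 1 and cerebral day 7 differed by less than the larger SD of the groups, as did cerebral day 3 and cerebral day 1. Quantile normalisation on top of the rebuilt values, which forces the same distribution on every array, shrank the spinal day 7 change to 4.50, still called. Lilr4b, a paralog of near-identical sequence 4.57 kb away, rose in the same 6 comparisons, with the smallest change at cerebral day 1 (1.03 ± 0.21) and the greatest at spinal day 7 (4.84). How far a probe for one of these genes reads the other was not tested.

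**Figure D2:**
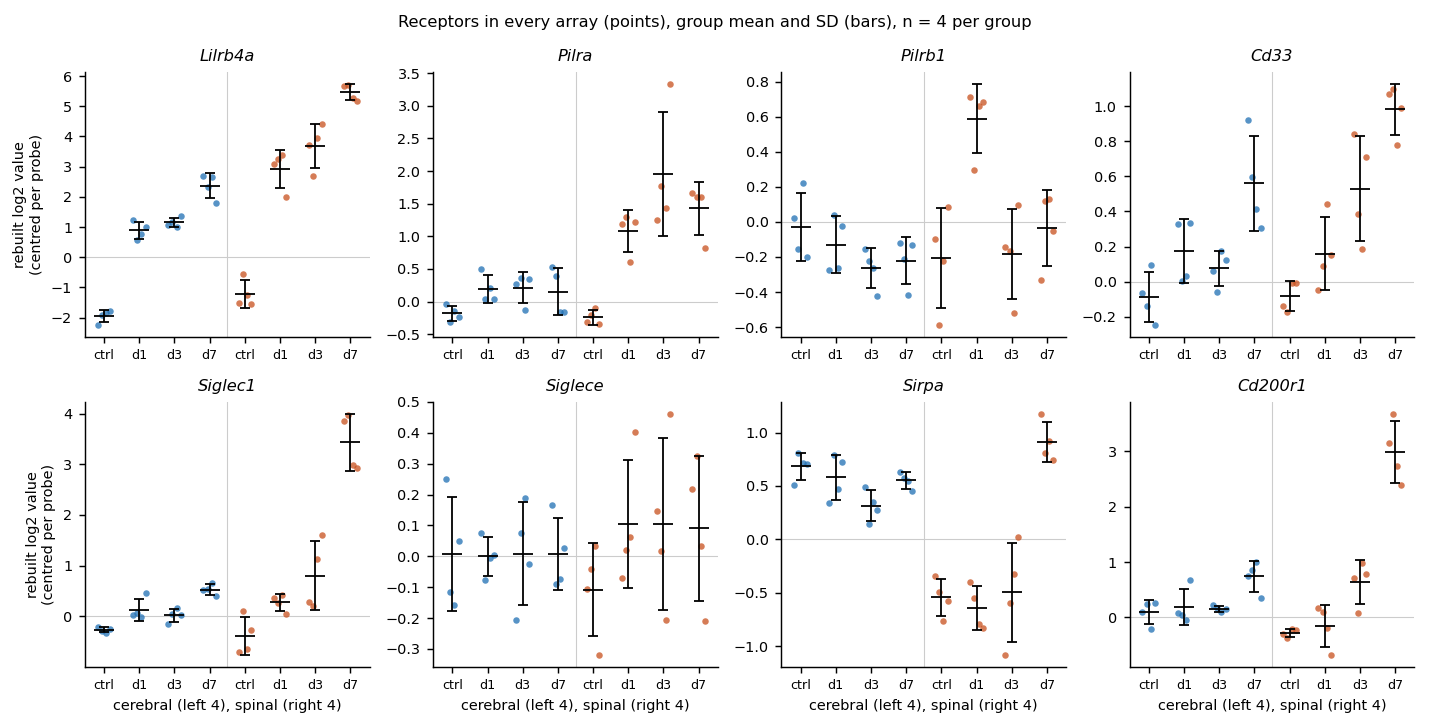
Rebuilt log2 value (y axis) of the 8 receptor genes on every array, by group (x axis, 4 arrays each), with blue points for cerebrum, orange points for spinal cord, and the group mean with a bar of 1 SD. The y axis differs between panels and carries no level between genes. Within the cord, Siglec1, Sirpa and Cd200r1 are highest at day 7 and Pilrb1 at day 1, and Siglece shows no group apart from the others.

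Pilra, an inhibitory receptor for sialylated glycoproteins such as the neuronal protein encoded by Pianp, rose at all 3 days in the injured cord and was not called in the cerebrum. Spinal controls were -0.31, -0.21, -0.10 and -0.35. Day 1 arrays of the cord were 1.20, 1.30, 0.60 and 1.22, day 3 arrays 1.26, 1.78, 1.44 and 3.33, and day 7 arrays 1.67, 1.61, 1.61 and 0.82. All 12 injured cord arrays exceeded all 4 controls, and 1 array of day 3, replicate 4, stood far above the rest of its group. The changes were 1.32 ± 0.27 (adjusted p = 3.8e-04), 2.19 ± 0.27 (4.3e-07) and 1.67 ± 0.27 (1.4e-05) at days 1, 3 and 7. In the cerebrum the same differences were 0.37 ± 0.27, 0.39 ± 0.27 and 0.33 ± 0.27, with adjusted p-values of 0.38, 0.59 and 0.73. The cerebral day 1 arrays did not overlap the controls (a gap of 0.070), and that difference passed at 0.035 when only these 2 groups were fitted. The spinal change exceeded the cerebral one by 0.95 ± 0.38 at day 1, which missed the threshold (adjusted p = 0.10). This excess passed under quantile normalisation (0.97, adjusted p = 0.034) and when only the groups compared were fitted (0.0043). The quantile-normalised change at spinal day 7 was 1.02.

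Pilrb1 was higher at day 1 in the cord and at no other time. Its spinal day 1 arrays were 0.71, 0.29, 0.66 and 0.69, against controls of -0.10, -0.59, -0.22 and 0.09. These groups did not overlap, and the change was 0.79 ± 0.14 (adjusted p = 6.4e-05). At spinal day 3 the arrays were back among the controls, at -0.14, -0.17, -0.52 and 0.10, and the difference was 0.02 ± 0.14. At spinal day 7 the difference was 0.17 ± 0.14 (adjusted p = 0.72), and in the cerebrum it ran from -0.24 to -0.10. Thus at spinal day 3 and day 7 Pilra was called higher and its activating partner was not, although the difference between the genes was not tested. Pilrb2, a further activating paralog, had spinal differences of 0.12, 0.31 and 0.13, none of them called.

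Of the sialic acid-binding lectins, Siglec1 changed most. Spinal controls were -0.71, 0.09, -0.65 and -0.27, and spinal day 7 arrays were 3.87, 3.98, 2.99 and 2.92. The gap between the groups was 2.83, wider than the spread within either one, and the change was 3.82 ± 0.23 (adjusted p = 2.6e-14), or 14.2-fold. At spinal day 3 the arrays were 0.27, 0.19, 1.12 and 1.61, above all controls by a gap of 0.099. That gap is smaller than the bound of 0.19 for this gene and day. The change was 1.18 ± 0.23 (adjusted p = 8.9e-04). At spinal day 1 it was 0.66 ± 0.23 (adjusted p = 0.031), with overlap of the groups. This day 1 call was lost without any one of spinal control replicates 1 and 3 or spinal day 1 replicates 1, 2 and 3, where the adjusted p ran from 0.055 to 0.097. The quantile-normalised change at spinal day 7 was 2.20.

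In the cerebrum Siglec1 controls were -0.21, -0.29, -0.33 and -0.25, and day 7 arrays were 0.52, 0.53, 0.65 and 0.39. The groups did not overlap, but the difference of 0.79 ± 0.23 missed the threshold against its bound (adjusted p = 0.056). It passed at 0.014 when the offset was taken as exact and at 1.7e-04 when only these 2 groups were fitted, and with the values as deposited it was 0.55 (0.13). At cerebral day 1 the groups did not overlap either, with a gap of 0.20. That difference of 0.40 ± 0.23 was not called (adjusted p = 0.26), but it passed under quantile normalisation (0.52, adjusted p = 0.040) and when only these 2 groups were fitted (0.022). At cerebral day 3 the difference was 0.29 ± 0.23.

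Cd33 rose at day 3 and day 7 in the cord and at day 7 in the cerebrum. Spinal day 7 arrays were 1.07, 1.10, 0.78 and 0.99, against controls of -0.14, -0.17, -0.01 and -0.01. They did not overlap, and the change was 1.06 ± 0.13 (adjusted p = 7.3e-07), or 2.09-fold. Cerebral day 7 arrays were 0.92, 0.60, 0.41 and 0.31, against controls of -0.06, -0.14, 0.10 and -0.24, a change of 0.65 ± 0.13 (adjusted p = 0.0090). This cerebral call was lost without cerebral day 7 replicate 1, where the change was 0.53 (adjusted p = 0.059), and with the largest instead of the 99th percentile shortfall as the allowance (0.082). The spinal day 3 change of 0.61 ± 0.13 (adjusted p = 0.0039) was lost under quantile normalisation (0.49, adjusted p = 0.057) and under array weights (0.44, 0.078). At day 1 the differences were 0.26 ± 0.13 in the cerebrum and 0.24 ± 0.13 in the cord, neither of which passed.

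Siglece, regarded as a close mouse counterpart of inhibitory human CD33-related Siglecs, was called in none of the 14 comparisons by limma, and its lowest unadjusted p was 0.12, at spinal day 1. Over all 32 arrays it lay between -0.32 and 0.46. Its largest difference from control was 0.21 ± 0.13, at spinal day 1 (adjusted p = 0.22) and at spinal day 3 (0.52), and in the cerebrum the 3 differences ran from -0.01 to 0.00. The values do not show whether the probe detects the transcript above background in this tissue.

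Sirpa, the Cd47 receptor, which neurons as well as myeloid cells express, differed first of all between the uninjured tissues. Cerebral controls were 0.51, 0.81, 0.72 and 0.70, and spinal controls were -0.34, -0.49, -0.76 and -0.58. After cerebral injury the arrays ran from 0.14 to 0.79 over the 3 days, and no difference from control was called: -0.10 ± 0.15, -0.37 ± 0.15 and -0.13 ± 0.15. The day 3 offset of Sirpa was known only within a range of 0.36 to either side, which made its bound 0.48. With the values as deposited, cerebral day 3 (-0.45, adjusted p = 0.044) and cerebral day 7 (-0.74, 0.0014) were called lower. The deposited values of these days are centred apart from the controls and leave out the rebuilt offset. For Sirpa that offset was 0.082 at day 3 and 0.60 at day 7.

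In the cord, Sirpa rose at day 7 alone among the 3 days. Its day 1 arrays were -0.39, -0.54, -0.79 and -0.83 and its day 3 arrays -1.08, -0.59, -0.33 and 0.02. The day 7 arrays were 1.17, 0.81, 0.92 and 0.74. Every day 7 array lay above every other cord array, and the change from control was 1.46 ± 0.15 (adjusted p = 3.4e-08), or 2.74-fold. With the values as deposited it was 0.85, still called.

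Cd47 (chromosome 16 from 49851328 to 49912503) rose at day 7 in the cord and by day 3 less securely. Spinal controls were -0.80, -0.06, -0.41 and -0.28, day 3 arrays 0.52, -0.01, 0.10 and 0.05, and day 7 arrays 0.81, 0.82, 0.74 and 0.52. The day 7 arrays cleared the controls by 0.58, and the change was 1.11 ± 0.13 (adjusted p = 2.0e-07), or 2.16-fold. At day 1 the difference was -0.17 ± 0.13 (adjusted p = 0.35). The day 3 change of 0.55 ± 0.13 (adjusted p = 0.0081) was lost without spinal control replicate 1 (0.42, adjusted p = 0.064), without spinal day 3 replicate 1 (0.44, 0.052) and when only these 2 groups were fitted (0.097). In the cerebrum, controls were 0.19, 0.22, 0.15 and 0.29 and day 7 arrays 0.64, 0.69, 0.60 and 0.72. These groups did not overlap either, but the difference of 0.44 ± 0.13 missed the threshold (adjusted p = 0.12). It passed at 0.014 with the offset taken as exact, and with the values as deposited it was 0.039 (adjusted p = 0.90).

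**Figure D3:**
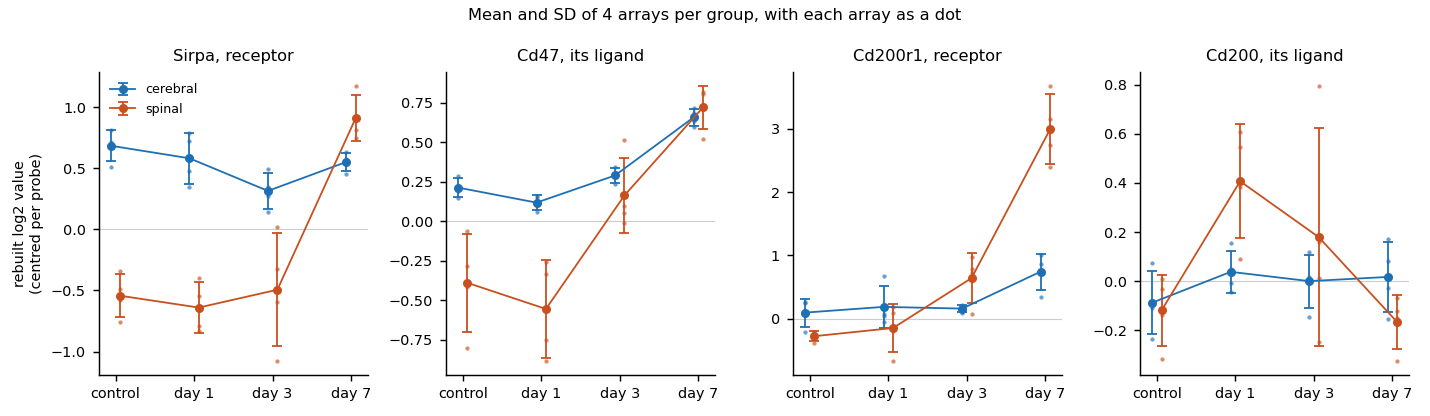
Rebuilt log2 values (y axis) of the receptors Sirpa and Cd200r1 and of their ligands Cd47 and Cd200, by day (x axis) in the cerebrum (blue) and spinal cord (orange), with points for the arrays and the group mean ± 1 SD. Within the cord, Sirpa, Cd200r1 and Cd47 have their highest group mean at day 7, whereas Cd200 has its highest at day 1.

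Cd200r1 rose in the cord from day 3. Spinal controls were -0.29, -0.38, -0.20 and -0.23 and day 1 arrays 0.18, 0.09, -0.19 and -0.67, with a difference of 0.13 ± 0.21 (adjusted p = 0.68). Day 3 arrays were 0.72, 0.08, 0.98 and 0.79, and day 7 arrays were 3.15, 3.68, 2.74 and 2.40. From day 3 on no array overlapped the controls, and the changes were 0.92 ± 0.21 (adjusted p = 0.0031) and 3.27 ± 0.21 (1.3e-13), the latter 9.63-fold. Cerebral day 7 arrays were 0.75, 0.87, 1.01 and 0.35, all above controls of 0.10, 0.25, -0.22 and 0.26. The gap between these groups was 0.093, less than the bound of 0.15. Their difference of 0.65 ± 0.21 missed the threshold (adjusted p = 0.11) and passed at 0.027 with the offset taken as exact. With the values as deposited it was 0.34 (adjusted p = 0.34). The quantile-normalised change at spinal day 7 was 1.84.

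Its ligand Cd200, a surface glycoprotein of neurons, endothelium and some lymphocytes, moved at another time. Spinal day 1 arrays were 0.38, 0.55, 0.61 and 0.09, against controls of -0.14, -0.03, -0.31 and 0.01. They did not overlap, and the change was 0.53 ± 0.14 (adjusted p = 0.0051). At spinal day 3 the difference was 0.30 ± 0.14 (adjusted p = 0.27), with arrays from -0.25 to 0.80, and at day 7 it was -0.05 ± 0.14. In the cerebrum it ran from 0.09 to 0.13 and was not called. Of 10 endothelial marker genes, 5, 6 and 4 rose and 4, 1 and 2 fell in the cord at days 1, 3 and 7, and 5, 4 and 1 rose in the cerebrum, where none was called lower by limma. Of all genes, 15.8%, 11.8% and 16.3% were higher in the cord at these days and 16.1%, 12.2% and 18.4% lower. In the cerebrum 8.91%, 4.41% and 5.28% were higher. The part of the endothelial genes in the Cd200 values was not tested. In the cord at day 7, therefore, both receptors of these pairs and Cd47 were called higher, and Cd200 was not.

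Uninjured cord was compared with uninjured cerebrum to ask how the tissues differ at the start. Of the 10 genes 1 was higher and 2 were lower in the cord, against 17.2% of all genes higher and 17.6% lower. Sirpa was lower in the cord by 1.23 ± 0.15 (adjusted p = 9.7e-08) and Cd47 by 0.60 ± 0.13 (4.3e-04), and neither gene's control groups overlapped. Lilrb4a was higher by 0.72 ± 0.28 (adjusted p = 0.045), but without spinal control replicate 2, its highest spinal control, the difference was 0.50 (adjusted p = 0.20). The call was also lost without each of the 4 cerebral controls, without spinal control replicate 3, under quantile normalisation (0.56, adjusted p = 0.054) and under array weights (0.62, 0.070). The range of the skeletal muscle markers on the spinal controls touches each comparison with them: the mean of 9 such genes ran from 0.29 to 4.09 on these 4 arrays, against -0.30 to -0.12 on cerebral controls. The part of this muscle RNA in the values above was not tested. With only spinal controls 3 and 4, the spinal day 1 change of Siglec1 was 0.73 (adjusted p = 0.053).

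Whether a response differed between tissues was tested as the spinal change minus the cerebral change, in which the offset cancels. At day 1 it was higher in the cord for 2 of 10 genes, against 4.70% of all genes: Pilrb1 by 0.90 ± 0.20 (adjusted p = 0.0034) and Lilrb4a by 1.32 ± 0.40 (0.028). At day 3 it was higher for 2, against 4.08% of all genes: Pilra by 1.80 ± 0.38 (adjusted p = 0.0027) and Lilrb4a by 1.81 ± 0.40 (0.0035). At day 7 it was higher for 6, against 13.0% of all genes. These were Siglec1 by 3.03 ± 0.33 (adjusted p = 6.4e-08), Cd200r1 by 2.62 ± 0.30 (1.4e-07), Lilrb4a by 2.38 ± 0.40 (3.2e-05), Sirpa by 1.59 ± 0.22 (1.9e-06), Pilra by 1.34 ± 0.38 (0.0083) and Cd47 by 0.67 ± 0.19 (0.0069). Cd33 (0.42 ± 0.19, adjusted p = 0.11) and Cd200 (-0.15 ± 0.20, 0.63) were not called to differ at day 7, nor were Pilrb1 and Siglece.

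These differences depended on the scale in part. Under quantile normalisation the difference of Lilrb4a became 0.75 (adjusted p = 0.11) at day 1, 0.34 (0.61) at day 3 and -0.090 (0.89) at day 7, and those of Pilra (0.62, 0.19) and Cd47 (0.31, 0.24) at day 7 were lost too. Siglec1 (1.29), Cd200r1 (1.03) and Sirpa (1.39) were still called at day 7, and Pilra was newly called at day 1 (0.97, adjusted p = 0.034). The day 1 difference of Lilrb4a was lost in addition without any one of 8 single arrays, at adjusted p-values up to 0.069. Scaling each array on its 75th percentile left 140 values of the receptors and ligands, over all comparisons, on the same side of the threshold. None of these values was lost, newly called or reversed. Among all genes called, that scaling moved the share of higher calls from 41.7% to 28.1% at day 1. At day 3 the share moved from 44.0% to 30.6%.

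Comparison of the late with the earlier days in one tissue asked which genes kept rising. In the cerebrum 1 of 10 was higher at day 7 than at day 1, against 2.18% of all genes: Lilrb4a by 1.48 ± 0.28 (adjusted p = 0.0027), which became 0.86 (0.12) with the values as deposited. Between cerebral day 7 and day 3 limma called 0 of 10, against 0.543% of all genes in either direction. The unadjusted p was under 0.05 for 1 of the 10, and Lilrb4a was the largest difference, at 1.21 ± 0.28 (adjusted p = 0.13). When the offset was taken as exact, Lilrb4a (0.0050) and Cd33 (0.48, 0.018) were called there. In that setting 1078 of all genes were higher and 969 lower, where 106 were called with the bound.

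In the cord 6 of 10 were higher at day 7 than at day 1, against 15.0% of all genes, and 2 were lower, against 16.2%. The rises were Siglec1 (3.17 ± 0.23), Cd200r1 (3.14 ± 0.21), Lilrb4a (2.53 ± 0.28), Sirpa (1.55 ± 0.15), Cd47 (1.28 ± 0.13) and Cd33 (0.82 ± 0.13), with adjusted p-values of at most 9.7e-05. Pilrb1 fell by 0.62 ± 0.14 (adjusted p = 0.0067) and Cd200 fell by 0.57 ± 0.14 (0.011) to group means of -0.03 and -0.17, beside spinal control means of -0.21 and -0.12. Both falls missed the threshold with the largest shortfall as the allowance (adjusted p = 0.053 and 0.081). Against day 3, 4 of 10 were higher at day 7, against 4.49% of all genes: Siglec1 (2.64 ± 0.23), Cd200r1 (2.35 ± 0.21), Lilrb4a (1.78 ± 0.28) and Sirpa (1.41 ± 0.15). Under quantile normalisation the rise of Lilrb4a was 0.52 in both of these comparisons and was no longer called (adjusted p = 0.26 and 1), and Cd33 against day 1 (0.42, 0.19) and Sirpa against day 3 (0.89, 1) were also lost. The last of these was lost as well when only its 2 groups were fitted (adjusted p = 0.064). That normalisation moved the share of higher calls among all genes called from 48.1% to 60.9% against day 1. Against day 3 it moved that share from 53.3% to 73.8%. It also called fewer of all genes against day 3, with 59 higher and 21 lower, where 876 were higher without it. Against day 1, 1436 were higher and 923 lower, where 2930 were higher and 3157 lower without it. For cerebral day 7 against day 3, the share of higher calls was 66.0%, and 46.9% under quantile normalisation.

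Other receptors of this kind were read from a list of 32 measured genes, which holds inhibitory receptors and their activating partners. In the cerebrum 6, 6 and 15 of them rose at days 1, 3 and 7, and none was called lower by limma. In the cord 10, 20 and 23 rose, and 1, Siglech at day 1, fell by 1.81. Of all genes, 8.91%, 4.41% and 5.28% were higher in the cerebrum at these days and 8.22%, 4.01% and 2.88% lower. In the cord 15.8%, 11.8% and 16.3% were higher and 16.1%, 12.2% and 18.4% lower. These shares also stand beside the counts of every list below. The median change of the list at day 7 was 0.65 in the cerebrum and 2.03 in the cord, against all-gene medians of -0.05 and -0.10. At spinal day 7 the largest rises were those of Cd300c2 (5.26), Trem2 (5.08), Lilr4b (4.84), Cd200r4 (4.49) and Fcgr2b (4.33). At spinal day 3 they were Fcgr2b (3.01), Pirb (2.81), Lilr4b (2.48), Cd300c2 (2.42) and Clec4a2 (1.72). Trem2 is a lipid receptor of phagocytes, Cd200r4 an activating paralog of Cd200r1 and Fcgr2b the inhibitory Fc receptor. Cd200r4, 16.7 kb from Cd200r1, was also called at cerebral day 7 (1.20), where Cd200r1 was not.

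The signalling list held 24 measured phosphatases, kinases and adaptors. In the cerebrum 11, 8 and 11 rose at days 1, 3 and 7, and in the cord 12, 17 and 20, with 1 lower at cerebral day 3 (Ptk2b) and 1 at spinal day 1 (Rasa1). The 3 phosphatase genes that serve the ITIM were called in different numbers of comparisons. Ptpn6 rose by 1.64, 1.46 and 2.08 in the cerebrum and by 2.39 and 3.78 at spinal day 3 and day 7, and was not called at spinal day 1 (0.59). Inpp5d was called in all 6 comparisons, least at spinal day 1 (0.75) and most at spinal day 7 (3.83). Ptpn11 was called in none of the 6, with differences from -0.08 to 0.31. Dok1 and Dok2, the adaptors of Cd200r1, were 1.75 and 1.03 higher at spinal day 7, and Tyrobp, the adaptor of Pilrb1, was 5.06 higher.

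**Figure D4:**
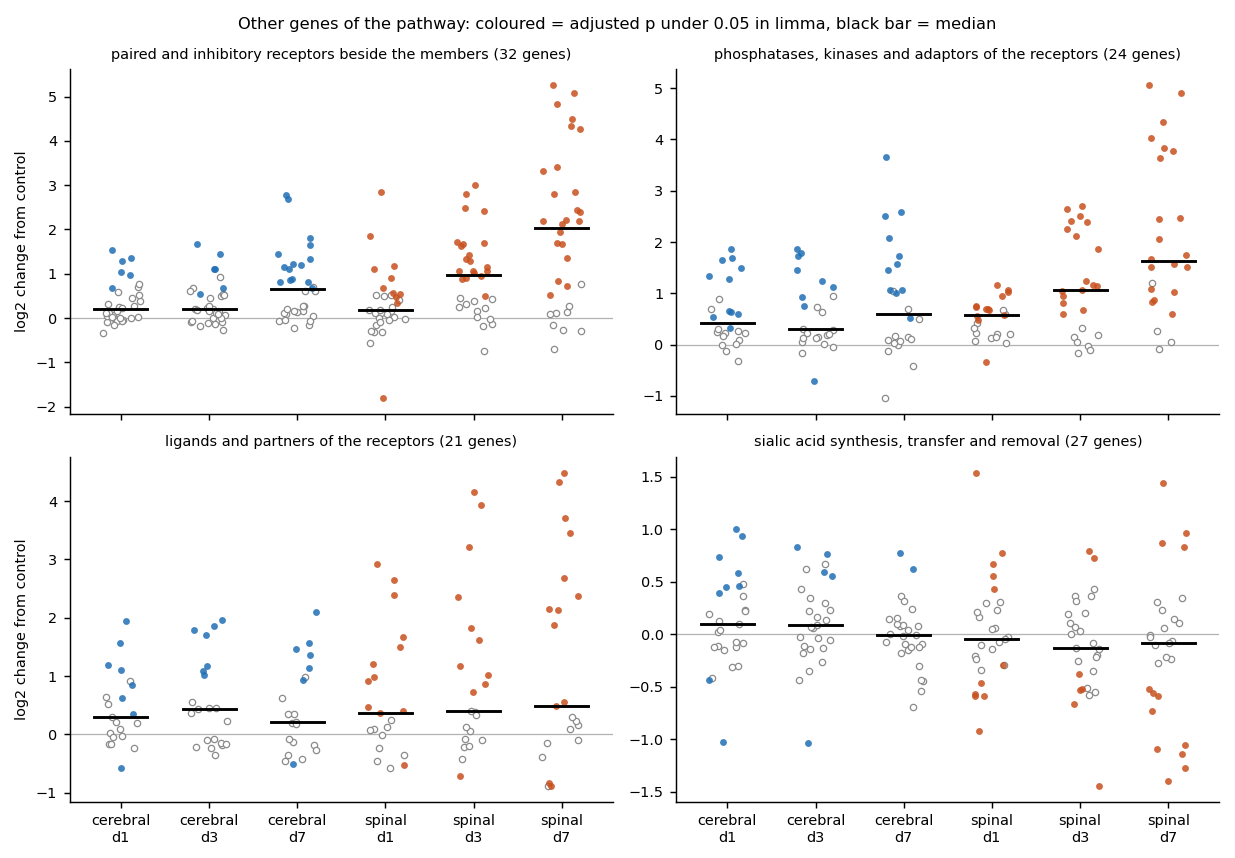
Log2 change against the control of the same tissue (y axis) for every measured gene of the 4 pathway lists, by tissue and day (x axis), with filled points for an adjusted p under 0.05 and a black line at the list's median. The medians of the receptors and of the signalling genes are highest at spinal day 7 (2.03 and 1.62), while the sialic acid genes stay centred near 0 in all 6 comparisons.

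Among 21 measured ligands and partners, 7, 7 and 6 rose in the cerebrum at days 1, 3 and 7 and 11, 10 and 11 in the cord, and 1, 0 and 1 fell in the cerebrum and 1, 1 and 2 in the cord. Fn1, encoding the fibronectin bound by gp49B, rose in all 6 comparisons, by 1.95, 1.96 and 2.11 in the cerebrum and by 2.65, 4.15 and 4.33 in the cord. Thbs1, encoding thrombospondin 1, a further partner of CD47, rose by 2.92, 3.94 and 4.49 in the cord and by 1.86 at cerebral day 3. The Pilra ligand genes Pianp and Npdc1 fell at spinal day 7, by 0.84 and 0.88.

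Sialic acid caps the glycans that the Siglecs and Pilra bind, and its genes showed no common direction. Of 27 measured, 7, 4 and 2 rose and 2, 1 and 0 fell in the cerebrum at days 1, 3 and 7. In the cord 5, 2 and 4 rose and 6, 5 and 9 fell. Of all genes, 8.91%, 4.41% and 5.28% were higher in the cerebrum and 8.22%, 4.01% and 2.88% lower. In the cord 15.8%, 11.8% and 16.3% were higher and 16.1%, 12.2% and 18.4% lower. The list's median change stayed between -0.13 and 0.10. St6gal1, which adds the α2,6-linked sialic acid that several Siglecs read, was 1.44 higher at spinal day 7. St8sia3, which builds chains of sialic acid, was 1.39 lower, and Gne, the first enzyme of sialic acid synthesis, was 1.09 lower.

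Markers of the cell types that could carry these receptors were read in the same comparisons. Of 12 measured monocyte and macrophage genes, 7, 7 and 8 rose in the cerebrum and 5, 11 and 10 in the cord at days 1, 3 and 7. The mean over the list ran from 2.79 to 3.40 on the spinal day 7 arrays, from 0.75 to 1.19 on the cerebral day 7 arrays and from -0.47 to 0.31 on spinal controls. Of 7 border macrophage genes, of which Siglec1 is no member, 5 rose at spinal day 7 and 2 at cerebral day 7. Of 11 homeostatic microglia genes, 5, 4 and 5 rose in the cerebrum, where limma called none lower. In the cord 2, 4 and 6 rose and 4, 0 and 1 fell, and P2ry12 was among those that fell at day 1 (-2.23). Siglech, counted above in the receptor list, is on this list too and was also among those that fell at day 1.

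Neutrophil genes rose in the cord, 5 of 11 at day 1 with 1 lower, 4 at day 3 and 10 at day 7. Their list means ran from 2.06 to 3.39 on spinal day 7 arrays and from 0.10 to 0.66 on spinal controls. In the cerebrum 1, 1 and 2 of the 11 rose at days 1, 3 and 7. Between the uninjured tissues 6 of the 11 were higher in the cord, against 17.2% of all genes. Of 10 T and NK cell genes limma called none at spinal day 7, where 1 had an unadjusted p under 0.05. At spinal day 1, 3 of them rose, and at cerebral day 1, 1 fell. Of 14 neuronal genes 3, 8 and 13 fell in the cord at days 1, 3 and 7 and 1, 1 and 0 rose, with list means from -1.85 to -1.28 on spinal day 7 arrays. In the cerebrum 2, 1 and 1 rose, and 1 fell, at day 7. The part of these cell types in the receptor and ligand values was not tested.

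Genes whose pattern over the 32 arrays was most like that of each receptor or ligand were found by Pearson's r on the rebuilt values, which share the same groups, so r is a description only. The closest to Lilrb4a were Fcgr3 (r = 0.982), an activating Fc receptor, and Bcl2a1a (0.982), a survival gene of the Bcl2 family. Siglec1 was closest to Nrros (0.967) and Cd200r1 to its neighbour Cd200r4 (0.968). Cd33 was closest to Klhl6 (0.901), Sirpa to the amino acid transporter Slc7a8 (0.909) and Cd47 to the proton pump subunit Atp6v1g1 (0.924). Pilra was closest to Rap1b (0.875), Pilrb1 to Tubb1 (0.818) and Cd200 to the acute phase gene Saa2 (0.853), with Il6 (0.836) among the next. The highest r for Siglece was 0.605, with Epsti1.

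Leaving out the array that stood apart, spinal day 3 replicate 1, left 5 of the 6 genes called at spinal day 3. The changes were then 4.90 for Lilrb4a, 2.43 for Pilra, 1.36 for Siglec1, 0.89 for Cd200r1 and 0.51 for Cd33, and Cd47 was the gene lost.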

How the data were processed

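The arrays measured RNA from snap-frozen tissue, extracted with TRIzol, of which 10 ng was amplified and labelled with biotin, per the labels' protocols. The deposited values are log2 values per probe, centred by the authors; no software or build is given in the sources used here. Values run from -5.58 to 8.04. Precision is limited by the number of arrays. Of 22206 probes, 19572 have 1 gene symbol, which gives 19505 genes. Controls and day 1 had a median of 0 in 100% of probes. Day 3 and day 7 were centred apart, best matched by joint centring with the 8 controls (86.8% of 5621 and 86.4% of 5127 probes tested; other partners 54.2% to 70.1%). Each probe's offset was rebuilt from this match, as a single value in 77.9% and 80.0% of probes and otherwise a range. Differences across parts had to exceed the half-width of this range plus an allowance, the 99th percentile of the shortfalls (0.12 and 0.15).

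All 32 arrays entered 1 fit across all genes with a mean for each of 8 groups, leaving 24 residual degrees of freedom (R 4.3.3, limma 3.58.1), adjusted after Benjamini-Hochberg over all genes and called at 0.05. The code was tested on simulated data. The 10 genes, the pathway and marker lists and the tests were chosen with earlier results of these data known. Named genes are the 10, up to 5 per list and comparison with the largest called change plus counterparts of the 10, and the genes with the highest Pearson r. Alternatives were quantile and 75th percentile scaling, values as deposited, the offset taken as exact, array weights, only the groups compared, the probe with the highest mean, leaving out the genes of lowest SD, and leaving out each array. The largest shortfall and subsets of the controls were added after seeing the data. Promoters are RefSeq, GRCm38.p6.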

Additional observations from a re-analysis of the deposited data

Results flagged for a closer look

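Of 80 sets of 4 arrays, 1 per gene and group, 5 held an array far from the other 3 by Dixon's criterion, and chance gives about 1 in 20 such sets. Pilra was low on 1 array of spinal day 1 (0.602) and on 1 of spinal day 7 (0.824), and Pilrb1 was low on 1 array of spinal day 1 (0.294). Each of these 3 values still lay above every spinal control of the same gene. Siglec1 was high on 1 array of cerebral day 1 (0.455), and Cd200r1 was high on 1 array of cerebral day 1 (0.672), which was the same replicate, number 4.

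The response differed between the tissues, by the test of the difference itself, for 10 combinations of gene and day. At day 1 the spinal change exceeded the cerebral change by 1.32 for Lilrb4a and 0.90 for Pilrb1. At day 3 it did so by 1.81 for Lilrb4a and 1.80 for Pilra. At day 7 the excess was 2.38 for Lilrb4a, 1.34 for Pilra, 3.03 for Siglec1, 1.59 for Sirpa, 2.62 for Cd200r1 and 0.67 for Cd47. Of all genes, 4.70%, 4.08% and 13.0% were called higher by this test at days 1, 3 and 7. Under quantile normalisation the differences of Lilrb4a at days 1, 3 and 7 were not called. Those of Pilra and Cd47 at day 7 were lost as well.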

How the results depend on the processing

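Over 14 comparisons and the alternatives run, single values stayed on the same side of the threshold in 2936 cases, in 115 of which a value called under neither setting changed sign. They passed the threshold newly in 43, lost it in 46, and a called value reversed in 1, the spinal minus cerebral difference of Lilrb4a at day 7, which was -0.090 under quantile normalisation. The cause of these changes was not tested. Counts of the 10 genes called moved by more than 1.5 times as follows. Under quantile normalisation they were 2 at cerebral day 1, 5 at cerebral day 7, 1 for the tissue difference at day 3, 3 for that at day 7, 2 for cerebral day 7 against day 1 and 2 for spinal day 7 against day 3. In the last of these, 59 of all genes were higher and 21 lower, where 876 were higher without it. As deposited, cerebral day 3 had 2 of the 10 genes called. With the offset taken as exact, counts were 5 at cerebral day 7, 2 for cerebral day 7 against day 1 and 2 for cerebral day 7 against day 3. Calls among all genes rose too in that setting. At cerebral day 7, 2252 were higher and 2088 lower, where 1030 and 561 were with the bound. For cerebral day 7 against day 3, 1078 were higher and 969 lower, where 106 were called with the bound. With array weights the counts of the 10 genes were 4 for the tissue difference at day 3, 2 for cerebral day 7 against day 1 and 1 for cerebral day 7 against day 3. With only the groups compared they were 3 at cerebral day 1, 5 at cerebral day 7, 2 for cerebral day 7 against day 1 and 1 for cerebral day 7 against day 3. With the largest shortfall as allowance, or only cerebral controls 3 and 4, cerebral day 7 had 1. With only spinal controls 3 and 4, cerebral day 7 against day 1 had 2, and with only cerebral controls 1 and 2 the tissue difference at day 1 had 1. Leaving out 1 array at a time gave 1 to 2 at cerebral day 7, 1 to 2 for the tissue difference at day 1 and 2 to 4 for that at day 3. No paired analysis was possible because the labels number no replicates, and accession order was used only for naming.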
